A study of Homo sapiens with 4 samples.

Results

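The FAM19A family comprises 5 human genes, FAM19A1 to FAM19A5, now named TAFA1 to TAFA5. They were taken by symbol from RNA-seq profiles of Daoy cells that listed 58174 genes and 199324 transcripts, of which 30 transcripts belong to the family. Daoy is an established line from a human medulloblastoma, a tumour of the cerebellum. The study compared 2 genotypes of this line with 2 libraries each, wild type Daoy cells and EED-knockout Daoy cells. EED belongs to the core of the Polycomb complex PRC2, the enzyme for the silencing histone mark H3K27me3. The labels name no treatment, and they do not say how EED was disrupted, whether the knockout libraries came from 1 clone, or whether the libraries of a genotype were separate cultures. The spread between libraries of a genotype may therefore be technical.

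The FAM19A genes encode small secreted proteins with a conserved pattern of cysteines and a distant resemblance to CC chemokines. They are expressed mainly in the nervous system. Neurons make them in the secretory pathway, where FAM19A1 to FAM19A4 can bind neurexins, presynaptic adhesion receptors whose heparan sulfate chains help them to bind partners. Several G protein-coupled receptors and other surface proteins have also been put forward as receptors of single members.

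The family was chosen by the counts and TPM of its genes in knockout against wild type cells, as seen in an earlier analysis of these data. The values of its members in that comparison are therefore a description, given without a test. They are given as estimated counts, as CPM (counts scaled to the library's effective size by TMM factors) and as TPM (which also allows for transcript length). Between genes, levels are compared in TPM only.

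The libraries held 17836112 to 19106382 estimated counts. Across the 18349 genes that passed the filter on low counts, edgeR's quasi-likelihood test called 0 genes at an adjusted p of 0.05, which is 0.0% of genes. At an unadjusted p under 0.05 it found 523 genes higher (2.85%) and 559 lower (3.05%) in knockout cells, and DESeq2 called 26 higher and 42 lower. EED itself had 626 and 500 counts in the wild type pair, against 340 and 490 in the knockout pair, with an edgeR log2 fold change of -0.49 ± 0.27 (SE) and an adjusted p of 0.878. Both knockout libraries lay below both wild type libraries, but the gene was still expressed, and the deposited values do not show the lesion. For EZH2, a methyltransferase of the complex, the means were 132.2 ± 25.4 and 124.0 ± 3.79 CPM (SD, 2 libraries per genotype), and for SUZ12, another core subunit, 118.1 ± 0.584 and 131.3 ± 2.06 CPM, wild type first. Of 9 markers of the granule neuron lineage and of hedgehog medulloblastoma, 6 passed the filter in these cells. ATOH1, a defining factor of granule neuron progenitors, had 0 counts in all 4 libraries, and BARHL1 and NEUROD1 did not pass the filter. All 5 mesenchymal markers passed it.

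In wild type cells FAM19A2 was the most abundant member, at 11.2 ± 3.29 TPM, followed by FAM19A3 at 2.77 ± 0.549 TPM and FAM19A5 at 1.55 ± 1.04 TPM (SD, n = 2 each). The 2 wild type libraries of FAM19A2 lay above those of the other members, while FAM19A3 and FAM19A5 were close to each other, since the higher FAM19A5 library reached 2.28 TPM and the lower FAM19A3 library 2.38 TPM. In knockout cells the order differed. FAM19A3 stood at 7.83 ± 6.99 TPM, FAM19A5 at 4.999 ± 3.91 TPM and FAM19A2 at 1.08 ± 0.579 TPM. The spread between the knockout libraries of FAM19A3 and FAM19A5 was larger than the difference between these 2 genes. Of the 5 members, 3 passed the filter on low counts, and FAM19A1 and FAM19A4 did not.

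**Figure D1:**
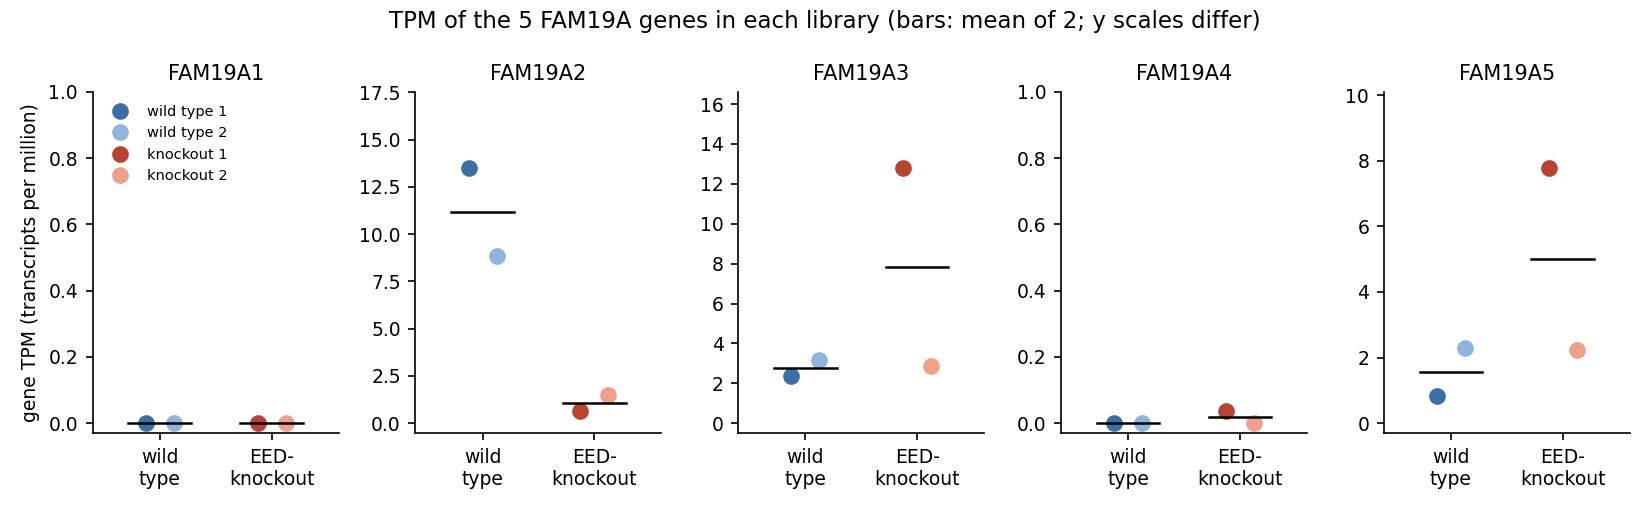
TPM of each FAM19A gene in the 2 wild type and 2 EED-knockout libraries (points) with the mean of each genotype (bars), on a y axis of its own per gene. FAM19A2 lies at 13.5 and 8.83 TPM in the wild type pair, against 0.671 and 1.49 TPM in the knockout pair, while FAM19A3 and FAM19A5 are high in knockout 1 alone and FAM19A1 and FAM19A4 lie at or near 0.

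FAM19A2 (ENSG00000198673; chromosome 12, 61708259 to 62279150, minus strand, GRCh38) spans a long locus at 12q14. Its counts were 381 in wild type 1, 133 in wild type 2, 12 in knockout 1 and 10 in knockout 2. In CPM these were 21.0 and 7.35 in the wild type pair, against 0.632 and 0.534 in the knockout pair. Both knockout libraries were thus far below both wild type libraries, and the wild type libraries themselves differed 2.85-fold. The ratio of the wild type to the knockout mean was 24.3 in CPM and 10.3 in TPM. The fitted log2 fold change was -4.59 ± 0.61 (SE). Knockout libraries below both wild type libraries were seen in 18.0% of all genes tested.

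Of 16 annotated transcripts of FAM19A2, 10 had any count. FAM19A2-005, which starts inside the gene, 433 kb from the start of the neighbouring gene USP15, held 313 counts in wild type 1 and 110.2 in wild type 2, against 0.284 in knockout 1 and 0 in knockout 2. Most wild type counts of the gene were assigned to it, and nearly none of the knockout counts. The 11 transcripts that start within 20 kb of the USP15 start held 67.9 and 22.8 counts in the wild type pair, against 11.7 and 10 in the knockout pair. Nearly all knockout counts of the gene were assigned to transcripts that start at this distal end, of which FAM19A2-002 and FAM19A2-003 run to the gene's last exon. FAM19A2-002, a transcript annotated for nonsense-mediated decay, held most of this group's counts in wild type 1, with 48.0, 9.68, 3.72 and 3 counts in wild type 1, wild type 2, knockout 1 and knockout 2. FAM19A2-003, which starts there too and carries the full reading frame, had 10.9 and 3.08 counts in wild type and 0 in both knockout libraries. FAM19A2-001, whose start 67.5 kb from that of USP15 lies close to the RefSeq start of the gene, had 0 counts in all 4 libraries. FAM19A2-004, a retained-intron transcript of the distal end, had 5 and 0 counts in the wild type pair, against 6 and 1 in the knockout pair, so its genotypes overlapped.

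**Figure D2:**
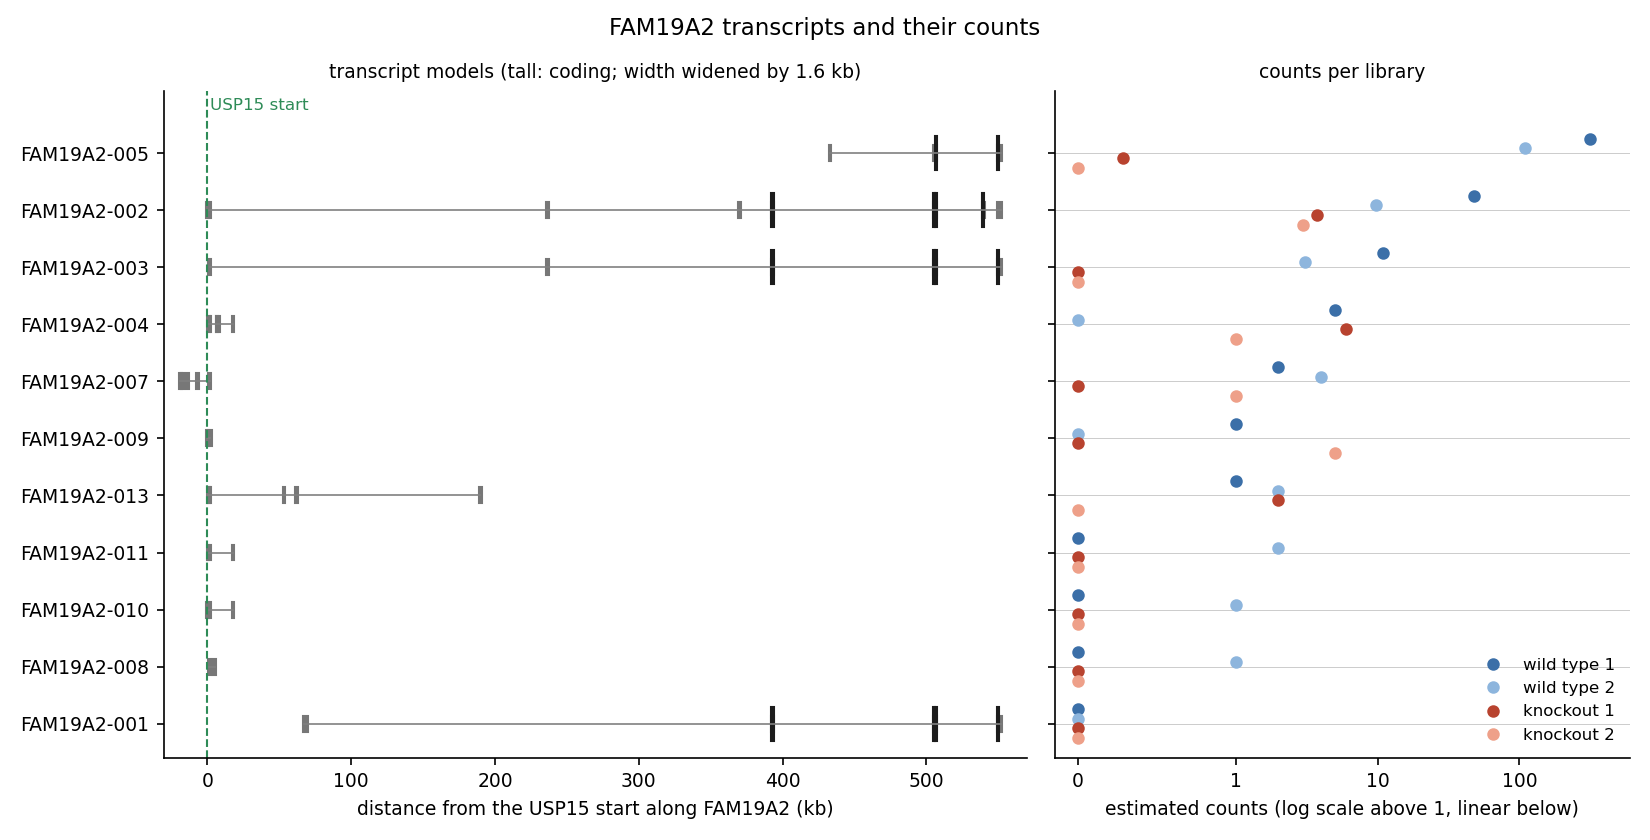
Left, models of the 10 FAM19A2 transcripts with counts and of FAM19A2-001, by distance in kb from the USP15 start, with coding parts tall and exons widened for visibility. Right, estimated counts of each transcript in each library, on a scale that is logarithmic above 1 and linear below; FAM19A2-005 lies at 313 and 110.2 counts in wild type and at 0.284 and 0 in the knockout pair.

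The transcript to which most wild type counts were assigned has a short reading frame. In the GENCODE 29 annotation FAM19A2-003 has 393 coding bases and FAM19A2-005 has 102, which are the last 102 of the 393. Whether a protein is made from either transcript was not measured.

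Kallisto divides fragments among transcripts that share sequence, and the FAM19A2 transcripts share most of their sequence. Of the 2469 stretches of 31 bases in FAM19A2-005, 77 occur in no other transcript of GENCODE 29, against 375 of 3222 for FAM19A2-002 and 28 of 2688 for FAM19A2-003. FAM19A2-002 and FAM19A2-003 also share exons that FAM19A2-005 lacks. All exons of FAM19A2-005 after its first are also in FAM19A2-002. The deposited values do not show where along a transcript its fragments lay, so use of the internal start was not measured. The family members cannot be mistaken for each other by this measure, since 0 such stretches were shared between any of the 5 genes. FAM19A2 overlaps USP15, which lies on the opposite strand, over 18813 bases, but none of the FAM19A2 stretches occurred in a USP15 transcript. Some did occur in transcripts of other genes. FAM19A2-004, FAM19A2-010 and FAM19A2-011 each shared 5 stretches with SLC3A2 and TRPM7, and FAM19A2-007 shared 17 with several genes. FAM19A2-002, FAM19A2-003 and FAM19A2-005 shared 0. Strandedness of the libraries is not stated in the labels.

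The split by biotype differed between counts and TPM. The protein-coding transcripts held 324 of the counts in wild type 1 and 113 in wild type 2, and the others 57.04 and 19.7. The 7 protein-coding transcripts of FAM19A2 summed to 11.04 and 4.38 TPM in the wild type pair, against 0.0105 and 0 TPM in the knockout pair. The 9 other transcripts summed to 2.45 and 4.45 TPM in the wild type pair, against 0.661 and 1.49 TPM in the knockout pair. Transcripts not annotated as protein-coding thus made up most of the TPM in both knockout libraries and slightly more than the coding ones in wild type 2. In wild type 2 and knockout 2 their TPM rested largely on few counts of short transcripts. In wild type 2, 4 counts of FAM19A2-007 (445 bases) gave 1.57 TPM and 2 counts of FAM19A2-011 (387 bases) gave 1.11 TPM. In knockout 2, 5 counts of FAM19A2-009 (744 bases) gave 0.925 TPM. FAM19A2-011 has 0 stretches of 31 bases of its own.

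The genes around FAM19A2 had small fitted differences. USP15, a deubiquitinase, stood at 64.5 and 65.0 CPM in the wild type pair, against 72.4 and 65.5 CPM in the knockout pair, with an edgeR log2 fold change of 0.09 ± 0.18 (SE; adjusted p = 0.971). MON2, a gene of endosome to Golgi traffic, had a log2 fold change of 0.17 ± 0.20 (adjusted p = 0.940), and PPM1H, a phosphatase, -0.02 ± 0.38 (adjusted p = 0.996). The knockout libraries of PPM1H, at 74.3 and 30.6 CPM, lay on either side of the wild type pair, at 55.5 and 51.3 CPM. Of 21 annotated neighbours within 500 kb of FAM19A2, 6 were tested, with log2 fold changes from -0.30 to 0.17, and 0 passed the threshold in edgeR. None of these 6 had an unadjusted p under 0.05 in that fit, where 2.85% of all genes were higher and 3.05% lower. Of the 7 genes that overlap FAM19A2, USP15 alone passed the filter, and neither of the 2 that overlap FAM19A5 did.

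FAM19A5 (ENSG00000219438; chromosome 22, 48489460 to 48850912, plus strand), the member most distant from the others, was higher in knockout cells through 1 library. The aligned coding bases of FAM19A5-001 were 58.7% to 63.4% identical to those of the other members, which were 64.4% to 72.1% identical among themselves. It had 20 and 46 counts in the wild type pair, against 162 and 53 in the knockout pair, or 1.10, 2.54, 8.53 and 2.83 CPM. Knockout 1 stood 3.01-fold above knockout 2, which lay just above wild type 2. In TPM the order of these last libraries turned, at 2.23 for knockout 2 and 2.28 for wild type 2, so that the genotypes overlapped. The fitted log2 fold change was 1.64 ± 0.65 (SE), and 0.64 without knockout 1. Both knockout libraries above both wild type libraries in CPM were seen in 17.8% of all genes tested, and knockout 1 as the highest of the 4 libraries in 31.2%.

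FAM19A5 has a pair of main transcript starts 86846 bases apart, and transcripts from both contributed. The 2 transcripts from the upstream start held 0 counts in wild type 1, 28.2 in wild type 2, 87.7 in knockout 1 and 22.1 in knockout 2. The 2 from the downstream start held 20 and 17.8 counts in the wild type pair, against 74.3 and 28.9 in the knockout pair. From the downstream start both knockout libraries were above both wild type libraries in counts, while from the upstream start knockout 2 lay below wild type 2. In TPM the downstream start gave 0.829 in knockout 2, just above 0.816 in wild type 1. FAM19A5-006, from the downstream start, went the other way, with 3.68 and 2.79 counts in wild type and 0 in both knockout libraries. A further transcript, FAM19A5-007, had 1.95 counts in knockout 2 and 0 elsewhere. Knockout 1 was the highest library for either start. FAM19A5-003, from the upstream start, and FAM19A5-001, from the downstream start, differ in their first coding bases, which encode the start of the protein. These are shown in capitals, followed by the first 30 of the 284 coding bases that both share.
FAM19A5-003: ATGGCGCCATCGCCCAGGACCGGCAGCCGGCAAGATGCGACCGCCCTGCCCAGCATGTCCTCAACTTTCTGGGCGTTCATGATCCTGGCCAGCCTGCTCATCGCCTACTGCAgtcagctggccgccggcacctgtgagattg
FAM19A5-001: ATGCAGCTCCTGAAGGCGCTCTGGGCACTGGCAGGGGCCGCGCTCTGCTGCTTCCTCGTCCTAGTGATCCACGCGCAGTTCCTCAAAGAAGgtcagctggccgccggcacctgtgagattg
The first coding part thus has 112 bases in one transcript and 91 in the other. Of the 1478 stretches of 31 bases in FAM19A5-003, 132 occur in no other transcript, and of the 2608 in FAM19A5-001, 1286 do.

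FAM19A3 (ENSG00000184599; chromosome 1, 112720419 to 112727235, plus strand) had 33 and 41 counts in the wild type pair, against 165 and 39 in the knockout pair. Its levels were 1.82 and 2.27 CPM in the wild type pair, against 8.69 and 2.08 CPM in the knockout pair. Knockout 1 stood 4.17-fold above knockout 2, which lay between the wild type libraries. The fitted log2 fold change of 1.40 ± 0.67 (SE) was 0.04 without knockout 1. Its 2 transcripts shared the pattern: FAM19A3-002 held 22.4, 30.7, 111.6 and 33.4 counts in wild type 1, wild type 2, knockout 1 and knockout 2, and FAM19A3-001 held 10.6, 10.3, 53.4 and 5.65. Both knockout libraries of FAM19A3-002 were above both wild type libraries, knockout 2 only slightly, while those of FAM19A3-001 lay on either side of them. Its nearest neighbour in the tested set, the phosphatase gene PPM1J, lies 4942 bases away and had 0.550 and 0.664 CPM in the wild type pair, against 1.26 and 0.534 CPM in the knockout pair (edgeR adjusted p = 0.942). Of 15 tested neighbours of FAM19A3 within 500 kb, 0 passed the threshold in edgeR. The antisense gene AL354760.1 was the 1 with an unadjusted p under 0.05, where 2.85% of all genes were higher and 3.05% lower. It had low counts, 3 and 3 in the wild type pair, against 11 and 16 in the knockout pair.

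**Figure D3:**
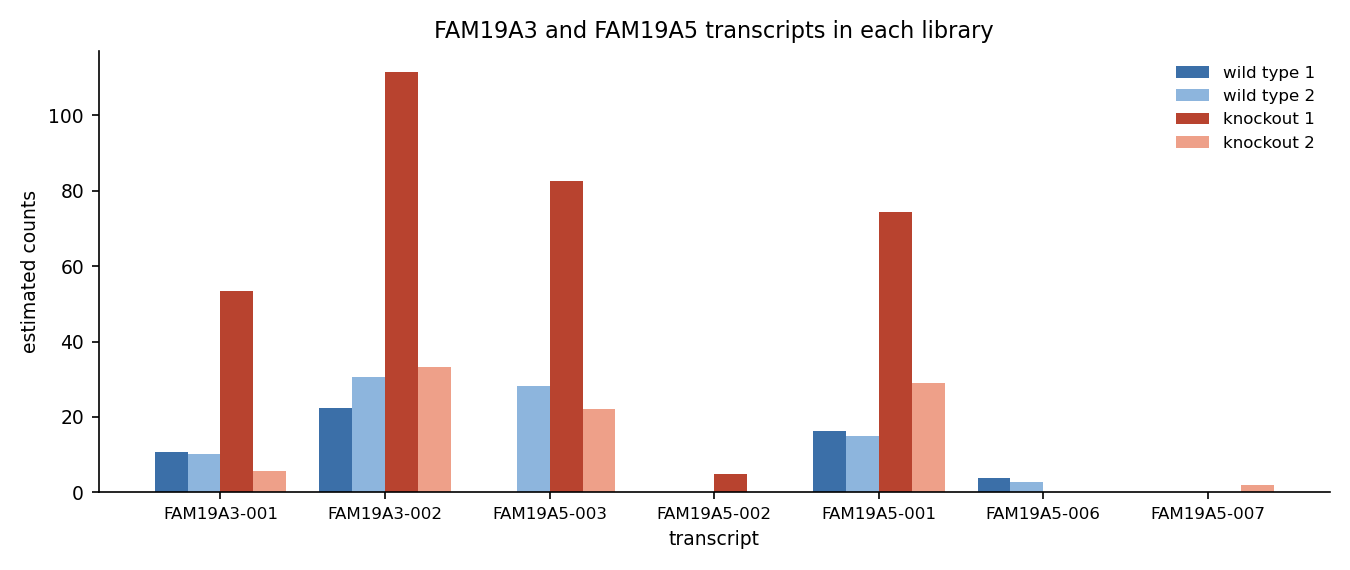
Estimated counts of the FAM19A3 and FAM19A5 transcripts (x axis) in each of the 4 libraries (bars). Knockout 1 is the highest library for FAM19A3-001, FAM19A3-002, FAM19A5-003 and FAM19A5-001, at 53.4, 111.6, 82.7 and 74.3 counts.

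All 4 markers of mature neurons passed the filter, and their summed level was 8.97 and 11.1 CPM in the wild type pair, against 12.9 and 8.28 CPM in the knockout pair. RBFOX3, a neuronal splicing factor, stood at 0.550, 0.995, 2.58 and 1.02 CPM in the same order, and SYT1, a synaptic vesicle protein, at 6.94, 8.35, 6.74 and 5.504 CPM. The remaining markers, SNAP25 and MAP2, stood at 1.21, 1.38, 1.79 and 0.748 CPM and at 0.275, 0.332, 1.79 and 1.02 CPM. The sum was thus highest in knockout 1, as RBFOX3, SNAP25 and MAP2 were. SYT1, which held most of the sum, was highest in wild type 2. Counts were low in the wild type pair, at 10 and 18 for RBFOX3 and 5 and 6 for MAP2. The summed levels of the granule lineage markers (261.9 CPM) and of the mesenchymal markers (20167 CPM) were highest in knockout 1 too. So was that of the blood markers (40.7 CPM, with 40.3 CPM in wild type 2). CD68 alone held nearly all of the blood sum (40.2 CPM in knockout 1), while CD3E had no counts and PTPRC did not pass the filter. Other marker groups did not share this order. Astroglia (3.48 CPM), oligodendrocyte (3.71 CPM) and endothelium (4.53 CPM) markers had their highest sums in wild type 2. Epithelium markers had theirs in knockout 2 (0.908 CPM, with 0.895 CPM in knockout 1). SFRP1 (149.1 CPM) and FN1 (12045 CPM) held the largest part of the granule lineage and mesenchymal sums. ZIC1, GLI1, COL1A2 and THY1 were also highest in knockout 1. ZIC2 (17.4 CPM) and PTCH1 (30.8 CPM) were lowest there, while VIM was highest in wild type 1 and COL1A1 and GLI2 in knockout 2. The part of any of these markers in the values of FAM19A3 and FAM19A5 was not tested. In bulk RNA, fewer cells that express a gene and less RNA of it per cell cannot be told apart.

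FAM19A1 (ENSG00000183662; chromosome 3, 68004216 to 68545625, plus strand) and FAM19A4 (ENSG00000163377; chromosome 3, 68731766 to 68953297, minus strand) lie near each other on 3p14. No count of FAM19A1 was found (0 in each of the 4 libraries), where 3 counts, the limit that a 0 allows, stand for 0.158 to 0.166 CPM. FAM19A4 had 1 count in knockout 1 and 0 in the other libraries. No fold change can be given for either gene at this depth. FAM19A4 is known as a product of sensory neurons and is used as a DNA methylation marker in cervical screening, and FAM19A1 is a brain transcript.

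The promoter windows of the family differ in their content of CG dinucleotides, the sequence feature by which vertebrate Polycomb target promoters are often described. RefSeq promoter windows (GRCh38.p14) run from 250 bases before to 50 after a gene's start, and all 5 members matched, with 6 windows in all. The upstream FAM19A5 window held 67 CG in its 300 bases, a number that 0.0114% of 35116 such windows reach. The downstream FAM19A5 window held 46, reached by 2.89% of windows. FAM19A4 held 37 (11.3% of windows have at least as many), FAM19A3 held 18 (44.5%), FAM19A2 held 7 (63.2%) and FAM19A1 held 3 (81.8%), where the median window held 14. CG reads the same on both strands. The windows of the members whose values the text describes are shown up to the first annotated exon base, 5′ to 3′, with each CG in capitals.
FAM19A2, chr12:62192843-62193023, minus strand: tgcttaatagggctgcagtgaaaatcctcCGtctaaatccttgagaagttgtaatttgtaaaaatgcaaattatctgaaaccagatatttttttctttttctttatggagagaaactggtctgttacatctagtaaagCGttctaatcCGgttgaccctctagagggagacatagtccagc
FAM19A3, chr1:112718655-112718904, plus strand: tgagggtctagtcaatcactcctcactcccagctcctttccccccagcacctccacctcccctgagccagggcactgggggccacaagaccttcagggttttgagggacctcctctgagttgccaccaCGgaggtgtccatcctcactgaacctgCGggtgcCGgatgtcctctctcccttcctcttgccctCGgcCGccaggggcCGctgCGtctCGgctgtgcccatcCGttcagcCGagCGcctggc
FAM19A5 upstream, chr22:48489303-48489459, plus strand: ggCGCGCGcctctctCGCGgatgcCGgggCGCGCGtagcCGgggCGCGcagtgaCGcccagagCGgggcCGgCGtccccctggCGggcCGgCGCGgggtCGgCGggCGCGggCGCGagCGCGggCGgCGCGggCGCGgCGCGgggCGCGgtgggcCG
FAM19A5 downstream, chr22:48576090-48576305, plus strand: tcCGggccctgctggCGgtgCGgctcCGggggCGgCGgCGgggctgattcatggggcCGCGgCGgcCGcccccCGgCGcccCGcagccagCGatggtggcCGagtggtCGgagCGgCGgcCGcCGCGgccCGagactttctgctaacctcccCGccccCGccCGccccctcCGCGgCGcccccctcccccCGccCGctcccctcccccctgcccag
The FAM19A3 window belongs to a RefSeq start at 112718905, upstream of the starts of both measured transcripts, at 112720419 and 112720577. The FAM19A2 window belongs to a RefSeq start at 62192773, close to that of FAM19A2-001 at 62192842, a transcript with no counts. This window does not belong to the internal start of FAM19A2-005, the transcript to which most wild type counts were assigned. Neither H3K27me3 nor binding of any factor at these windows was measured here.

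**Figure D4:**
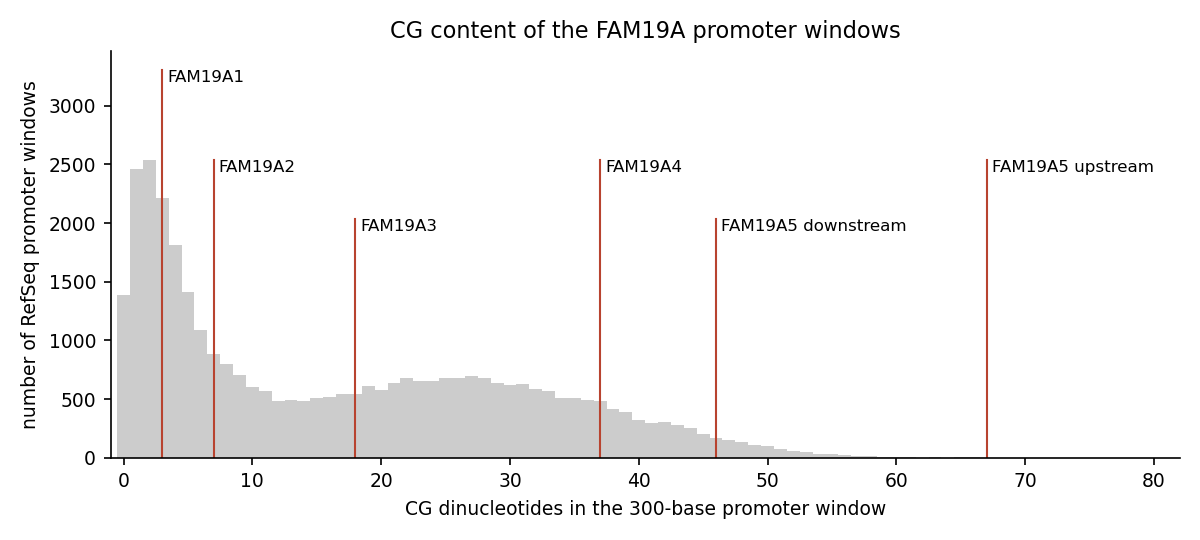
Number of RefSeq promoter windows of 300 bases (y axis) by their count of CG dinucleotides (x axis), with the 6 FAM19A windows marked by lines. The FAM19A1 and FAM19A2 windows hold 3 and 7 CG, and the FAM19A5 windows 46 and 67.

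The proteins that FAM19A members are reported to bind were measured next. Of 8 such partner genes, 6 passed the filter, 5 of them with a higher and 1 with a lower fitted value in knockout cells, and edgeR called 0 (smallest adjusted p = 0.789). Their median log2 fold change was 0.49, beside 0.01 over all genes tested. Leaving out wild type 1 gave 0.05 and leaving out wild type 2 gave 1.42. Without knockout 1 it was -0.13, and leaving out knockout 2 gave 0.92. Among the neurexins, NRXN2 had 24 and 50 counts in the wild type pair, against 221 and 26 in the knockout pair, so knockout 2 fell between the wild type libraries. NRXN3 had 0 to 6 counts per library and was not tested. LRP1, an endocytic receptor put forward for FAM19A4, stood at 43.9 and 94.1 CPM in the wild type pair, against 124.2 and 43.9 CPM in the knockout pair (adjusted p = 0.965). LRRC4B, a synaptic adhesion protein put forward for FAM19A5, stood at 6.16 and 10.3 CPM in the wild type pair, against 38.1 and 18.3 CPM in the knockout pair. Its genotypes did not overlap, with a log2 fold change of 1.78 ± 0.42 (SE; adjusted p = 0.789), and it was the 1 partner with an unadjusted p under 0.05, where 2.85% of all genes were higher at that level. DESeq2 called LRRC4B, among the 26 genes it called higher of 18349 tested. S1PR2, a sphingosine 1-phosphate receptor also put forward for FAM19A5, had 6.72 and 7.02 CPM in the wild type pair, against 6.64 and 8.07 CPM in the knockout pair. FPR1, a formyl peptide receptor put forward for FAM19A4, had 36 and 41 counts in the wild type pair, against 13 and 28 in the knockout pair, with a log2 fold change of -0.96 ± 0.55 (adjusted p = 0.881).

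Other ligands of neurexins had mostly higher fitted values in knockout cells. Of 25 such genes 14 passed the filter, 13 with a higher and 1 with a lower value, and edgeR called 0 (smallest adjusted p = 0.491). Over all genes tested 9346 of 18349 had a higher value. At an unadjusted p under 0.05 in edgeR, 5 of the 14 were higher (CBLN1, NXPH2, C1QL1, C1QL4 and ADGRL1) and 0 lower. Of all genes 2.85% were higher and 3.05% lower at that p. The list's median log2 fold change was 0.68, beside 0.01 over all genes. It was 1.07 without wild type 2 and 0.39 without knockout 1. The knockout pair was wholly above the wild type pair in 6 of the 14, where 17.8% of all genes did so, and below in 0, where 18.0% did so. C1QL1, a secreted C1q-like synaptic organizer, had the smallest p of the list, with 1.93 and 2.99 CPM in the wild type pair, against 11.6 and 10.2 CPM in the knockout pair (log2 fold change 2.15 ± 0.37, SE; adjusted p = 0.491). Its knockout libraries were close to each other, and DESeq2 called it, among the 26 genes it called higher. NXPH2, a neurexophilin, had the largest fitted value, with 10 and 6 counts in the wild type pair, against 76 and 28 in the knockout pair (2.62 ± 0.68; adjusted p = 0.799). The genotypes overlapped for several ligands: the dystroglycan gene DAG1 stood at 112.4 and 113.8 CPM in the wild type pair, against 110.1 and 136.8 CPM in the knockout pair, and the latrophilin ADGRL2 at 44.2, 43.8, 39.7 and 54.0 CPM. NLGN2, a neuroligin of inhibitory synapses, stood at 23.5 and 42.7 CPM in the wild type pair, against 43.7 and 36.0 CPM in the knockout pair. CBLN3, a cerebellin, had 14, 3, 12 and 5 counts and was the 1 ligand with a lower fitted value.

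Genes of heparan sulfate synthesis, which builds the chains carried by neurexins, were split in direction. Of 21 genes 15 passed the filter, 10 with a higher and 5 with a lower value, and the median log2 fold change was 0.08. It was -0.02 without wild type 1, 0.14 without wild type 2 and 0.04 without knockout 1. EdgeR called 0 of them (smallest adjusted p = 0.808), with 3 higher and 1 lower at an unadjusted p under 0.05, beside 2.85% and 3.05% of all genes. EXT1 and EXT2 form the polymerase of the chain. EXT1 stood at 128.6 and 147.8 CPM in the wild type pair, against 172.3 and 111.6 CPM in the knockout pair, and EXT2 at 65.7, 97.2, 156.1 and 106.0 CPM. The genotypes overlapped for EXT1 and not for EXT2, whose log2 fold change was 0.69 ± 0.28 (SE; adjusted p = 0.834). NDST1, which sulfates the chain, stood at 124.6 and 135.3 CPM in the wild type pair, against 163.2 and 103.7 CPM in the knockout pair. HS3ST3A1, a late-acting sulfotransferase, stood at 21.1 and 31.1 CPM in the wild type pair, against 14.1 and 16.7 CPM in the knockout pair (-0.76 ± 0.27; adjusted p = 0.808). NDST3 had 4, 12, 30 and 12 counts (1.32 ± 0.79).

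CC chemokines, the proteins that the family was first likened to, were mostly too low to test. Of 24 genes 5 passed the filter, 1 with a higher and 4 with a lower value, and their log2 fold changes had a median of -0.50. EdgeR called 0 of them (smallest adjusted p = 0.799). CCL2, a monocyte attractant, had the highest level, with 668.5 and 790.4 CPM in the wild type pair, against 1285 and 998.9 CPM in the knockout pair (0.65 ± 0.22; adjusted p = 0.808). CCL3, an inflammatory chemokine, had 30 and 26 counts in the wild type pair, against 0 and 4 in the knockout pair, and CCL5, a T cell attractant, had 152, 144, 8 and 39. All 3 of these had an unadjusted p under 0.05 and groups that did not overlap, 1 of the 5 tested genes higher and 2 lower. Of all genes 2.85% were higher and 3.05% lower at that p, and 17.8% and 18.0% did not overlap. DESeq2 called CCL5, among the 42 genes it called lower of 18349 tested. CCL20, an attractant of lymphocytes, stood at 0.716 and 0.940 CPM in the wild type pair, against 0.737 and 0.427 CPM in the knockout pair, where the genotypes overlapped.

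**Figure D5:**
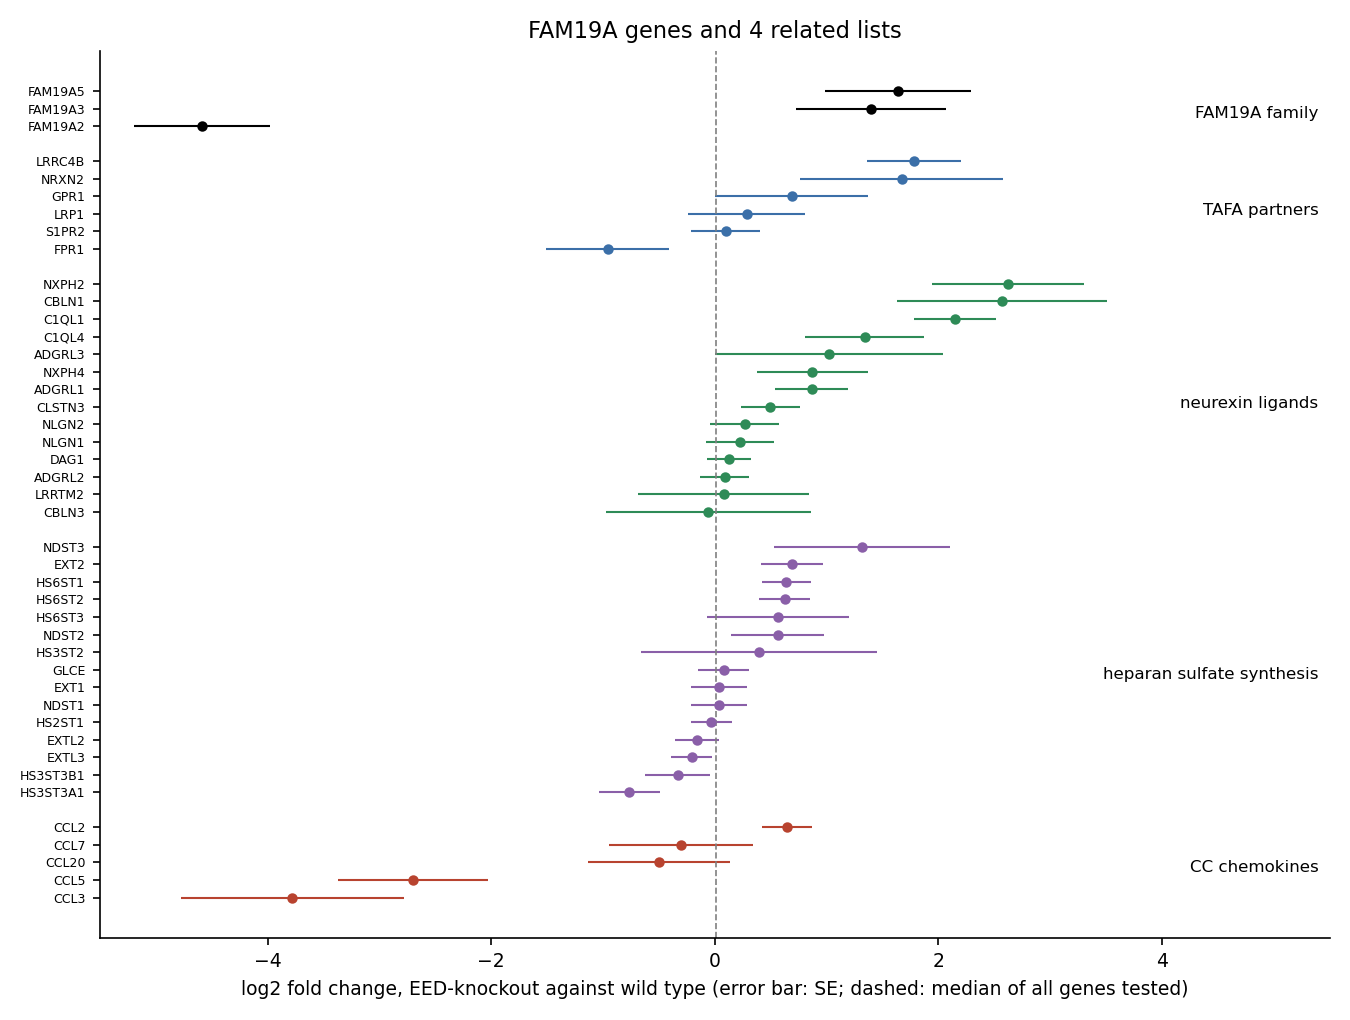
Fitted log2 fold change of EED-knockout against wild type (x axis) with its standard error for the 3 FAM19A genes that passed the filter and for the tested genes of 4 related lists (rows). FAM19A2 lies at -4.59, FAM19A5 at 1.64 and FAM19A3 at 1.40, and the dashed line marks the median of all genes tested, 0.01.

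Genes whose library profile was most like that of a member were found by the root mean square distance between log2 CPM profiles, each less its own mean over the 4 libraries, among 12648 protein-coding genes. For FAM19A2 these were DNAJC12, a co-chaperone (distance 0.858), LCP1, an actin-bundling protein (0.917), CPS1, an enzyme of the urea cycle (0.962), MYPN, a sarcomere protein (1.12), and CCL5 (1.13). DNAJC12 stood at 7.54 and 3.26 CPM in the wild type pair, against 0.527 and 0.962 CPM in the knockout pair, and LCP1 at 98.6, 24.3, 6.43 and 11.01 CPM. For FAM19A3 the nearest profiles were those of SRR, the serine racemase gene (0.0951), PTPRN (0.130), NOVA2, a neuronal splicing factor (0.146), KCNS3, a potassium channel subunit (0.146), and LIAS (0.157). SRR stood at 10.3 and 11.9 CPM in the wild type pair, against 40.6 and 11.9 CPM in the knockout pair, the same single high library as FAM19A3. For FAM19A5 they were DKK1, a secreted WNT inhibitor (0.152), LRRC15 (0.157), KLRG2 (0.159), PARVG (0.165) and NPTX2, a neuronal pentraxin (0.173). DKK1 stood at 6.11 and 13.0 CPM in the wild type pair, against 38.3 and 17.4 CPM in the knockout pair. The nearest profile was thus at 0.858 for FAM19A2, against 0.0951 for FAM19A3 and 0.152 for FAM19A5. The distance covers only 4 libraries. It is not scaled to the size of a member's own differences, which were largest for FAM19A2, so the distances of different members cannot be compared directly.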

How the data were processed

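RNA was extracted with TRIZOL and RNeasy columns, per the labels' protocols. The deposited estimated counts and TPM values come from kallisto 0.43.1 with the build hg38, per the submitters' processing notes; kallisto's settings and GENCODE release are not stated there. The authors' effective lengths differ between libraries. Estimated counts were summed per gene, rounded and tested in edgeR 4.0.16 by quasi-likelihood (R 4.3.3; TMM factors; filterByExpr with minimum count 10 and minimum total 15; Benjamini-Hochberg adjustment; two-sided), which left 18349 genes. SE is the absolute log2 fold change over the root of F. Positions, coding parts and 31-base stretches came from GENCODE 29 (GRCh38), and promoter windows from RefSeq. Members and lists were chosen with earlier results of these data known. Named genes were the members, EED, EZH2, SUZ12, the overlapping gene USP15, in each list the 3 genes of highest mean CPM and the largest difference in each direction, and the 5 genes of nearest profile per member; other genes were named after their values were seen. Alternatives used DESeq2 1.42.0 and limma 3.58.1, among others. The scripts were checked on simulated data. In the 4 libraries 3 counts stand for 0.158 to 0.166 CPM, and such limits cover counting error only. Replicate numbers were shared between genotypes, but nothing in the labels says that they pair libraries. Some items are not reported here.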

Additional observations from a re-analysis of the deposited data

How the results depend on the processing

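The number of genes called by edgeR was 0, also with RLE size factors, without the filter, with length-scaled TPM counts and with limma. It was 68 with DESeq2, and 0 to 95 when 1 library was left out (4 without wild type 2, 92 without knockout 1, 95 without knockout 2). FAM19A2 stayed lower in knockout cells under all 13 alternatives. With both knockout libraries far below both wild type libraries, FAM19A2 could hardly do otherwise, so this is no further support. Its log2 fold change was -4.59, and -3.47 with length-scaled TPM counts, -2.55 on log2(TPM + 1), -3.31 on log2(TPM + 0.1) and -5.15 to -3.64 when 1 library was left out. FAM19A3 ranged from 0.04 (without knockout 1) to 2.09 and FAM19A5 from 0.64 (without knockout 1) to 2.36 over the same alternatives. The median of the partner genes was 1.42 without wild type 2, and that of the CC chemokines -0.94 without knockout 1 and -0.23 on log2(TPM + 1). With the replicate block edgeR called 0 genes and FAM19A2 had -4.43; deviations of same-numbered libraries correlated at -0.14 across genes, so the crossed pairing, added after seeing the data, was also fitted and called 0 genes. Low depth limits FAM19A1, FAM19A4 and the single FAM19A2 transcripts. Leaving out a library takes the spread from the intact genotype alone.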

Other observations

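A few further genes of the related lists, named after their values were seen, differed in raw counts; those without a p did not pass the filter on low counts. C1QL2, a C1q-like synaptic organizer, had 0 and 2 counts in the wild type pair, against 10 and 33 in the knockout pair, and C1QL4, which was tested, had 11 and 20 counts in the wild type pair, against 43 and 39 in the knockout pair (edgeR adjusted p = 0.823). CBLN4, a cerebellin, had 6 and 3 counts in wild type and 0 in both knockout libraries. CBLN1, the cerebellin of granule neurons, had 4 and 9 counts in the wild type pair, against 12 and 69 in the knockout pair, so that its high library was knockout 2 and not knockout 1 (edgeR adjusted p = 0.808). HS3ST4, a sulfotransferase of heparan sulfate, was at 0 counts in each wild type library and at 4 and 9 with EED knocked out.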
